A study of Mus musculus with 6 samples.

Results

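The Myc, Max and Mxd network was followed in mouse liver through its 9 genes Myc, Mycn, Mycl, Max, Mxd1, Mxd3, Mxd4, Mxi1 and Mnt, of 18193 genes named on the arrays. Members were taken by gene symbol alone, and all of their probe sets are given: 22 of 45265, with 20 on the Affymetrix mouse 430A array and 2, both of Mxd1, on the 430B array. A probe set is the group of short probes whose combined brightness, the signal, stands for 1 transcript.

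The proteins of this network bind DNA in pairs. Myc, Mycn and Mycl pair with Max and switch on genes of growth, ribosome building and cell division, whereas Mxd1, Mxd3, Mxd4, Mxi1 and Mnt pair with the same Max, bind the same E-box sequence and recruit Sin3 and histone deacetylases to silence genes. In liver, Myc is low at rest and is known to rise early after partial hepatectomy, before hepatocytes copy their DNA.

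Livers of male mice of a hybrid B6SJL background, 32 to 37 days old, were compared in 3 genotypes, each with 1 array of either design. WT mice carried no transgene, so they lacked ApoErtTA as well, and its effect cannot be told apart from that of the viral proteins. LT mice carried ApoErtTA:TRE2-TAg, in which doxycycline switches on viral proteins of SV40 in the liver, here the large T antigen (LT) with the small t antigen (st). LT binds both the retinoblastoma family and p53. 17kT mice are labelled with the same pair of transgenes and made 17kT with small t. The 17kT protein is a truncated large T that keeps the binding to the retinoblastoma family and lacks the p53-binding part. Doxycycline (25 µg/ml) and sucrose (2.5%) were in the drinking water of every group for 4 days, that of WT included. The labels do not say whether RNA of 1 animal or of several went onto an array.

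There were no replicates: nothing below could be set against the spread between animals, and no test was possible. Signals were scaled to a common trimmed mean and then raised to a floor, which is the median signal of an array design (90.4 for 430A, 140.5 for 430B, in arbitrary units). A probe set was called higher or lower at 2-fold or more, and "at least" marks one at the floor on the dimmer array. The spread between probe sets was taken from pairs of the same gene, both above the floor and less than 3 times as bright as it. The SD of their difference in log2 ratio, divided by the square root of 2, gives the SD of a single probe set. It was 0.49 (LT against WT), 0.50 (17kT against WT) and 0.47 (LT against 17kT), over 375 pairs. Below the floor the scatter was far wider. Among 9552 probe sets of 430A that never rose above it, the SD of the log2 ratio before flooring was 1.46 for LT against WT and 1.41 for 17kT against WT, and the middle 95% ran from -3.26 to 2.92 and from -2.84 to 3.20.

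The arrays carried the marks of liver and of dividing cells. Alb, the albumin gene, was brighter than at least 99.9% of probe sets on all 3 430A arrays, and all 11 matched hepatocyte markers were above the floor in every genotype. Apoa1 and Ttr, which encode plasma proteins, were brighter than at least 99.9% of probe sets as well. Afp, the fetal liver gene, was at 65.7 in WT, 7712 in LT and 223.2 in 17kT. The proliferation antigen gene Mki67 had a signal of 199.2 in WT, 1937 in LT and 2454 in 17kT. Of 19 matched proliferation genes, 18 were higher in LT than in WT and 18 in 17kT, against 11.1% and 9.97% of all genes. The highest folds in LT were those of Bub1b (at least 17.4), Top2a (14.9), Ube2c (14.3) and Ccnb2 (13.8), and in 17kT those of Top2a (19.8), Birc5 (at least 17.9), Ccnb2 (16.7) and Bub1b (at least 14.7). Rrm2 was 2.06-fold lower in LT than in 17kT. The 3' over 5' signal ratio of control transcripts rises as RNA degrades. For Gapdh it was 5.81 and 6.04 in WT, 3.08 and 3.16 in LT, and 3.53 and 2.85 in 17kT, highest in WT. For Actb it was 2.57 and 2.29 in WT, 2.52 and 2.50 in LT, and 2.13 and 1.72 in 17kT, so that WT and LT overlapped and 17kT was lowest. Fluidics station 2 served the LT arrays and station 1 the others. The part of RNA quality in the results below was not tested, and that of the station cannot be told apart from LT. In whole liver RNA, fewer cells of a type and less RNA per cell cannot be told apart.

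Most of the network lay in the dim range of the arrays. Of the 22 probe sets, 12 were at the floor on all 3 arrays, 2 rose above it on 1 array, 6 on 2 arrays and only 2 on all 3 (Mxi1 1450376_at and Mxd1 1434830_at). The 10 that rose above it on at least 1 array belonged to 6 genes, and Mycn, Mycl and Max were never above it. On the 430A design as a whole, 42.3% of probe sets were never above the floor.

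**Figure D1:**
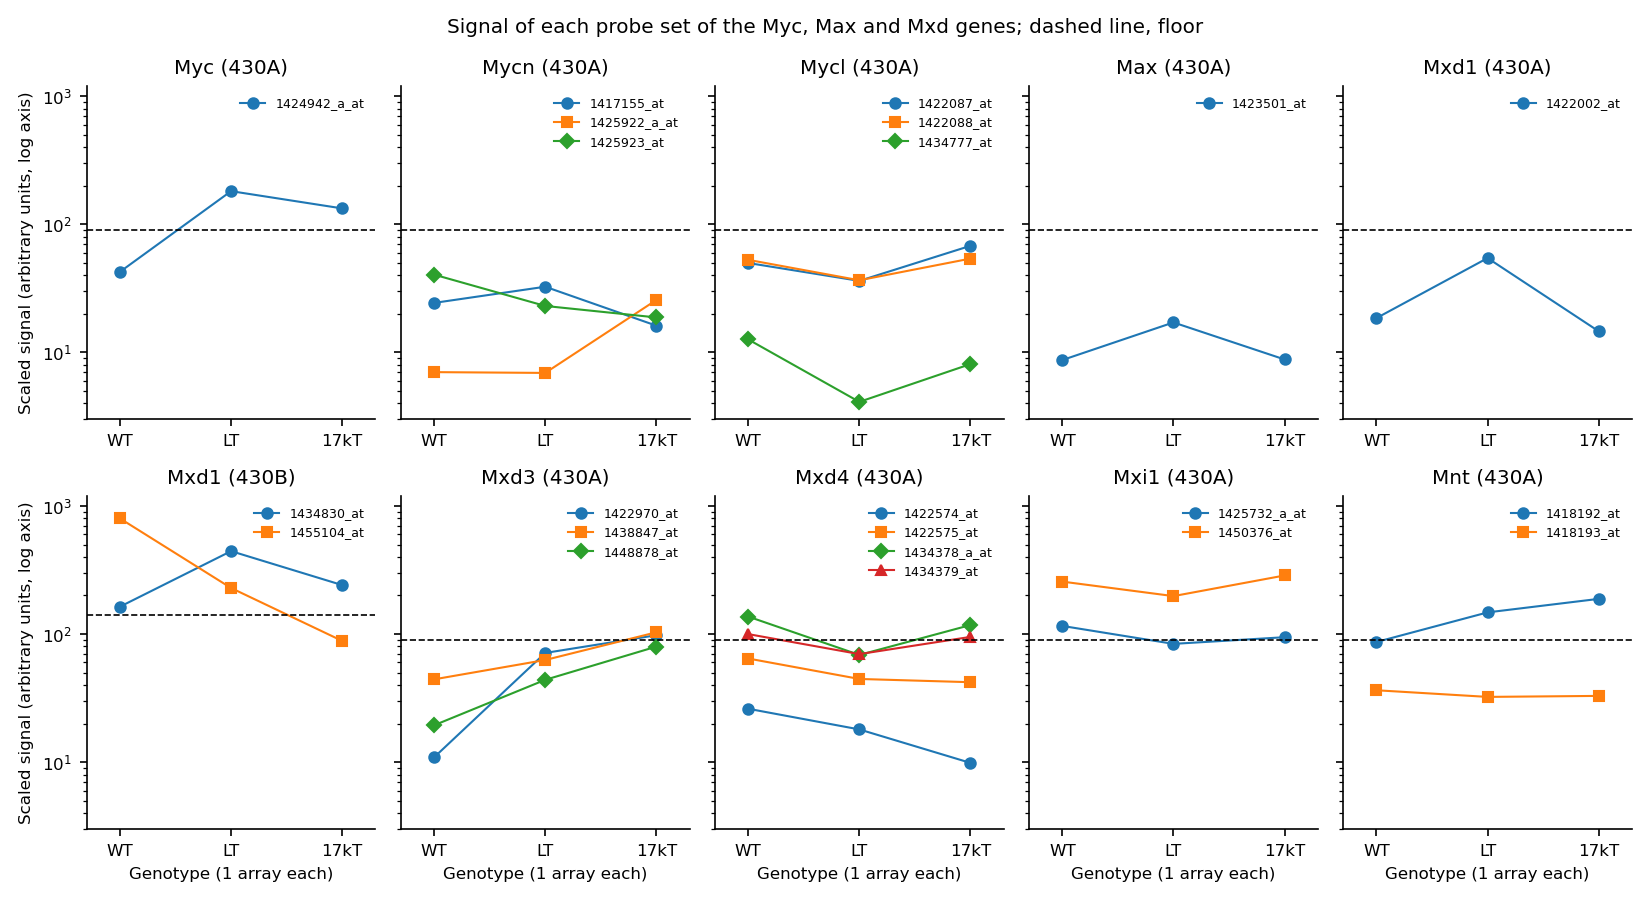
Scaled signal (arbitrary units, log axis) of each of the 22 probe sets on the WT, LT and 17kT array, with lines joining the values of a probe set, 1 array per point and the floor of the design dashed. Myc crosses the floor in LT and 17kT, the 2 Mxd1 probe sets of 430B cross each other, and Mycn, Mycl and Max stay under the floor.

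Myc, the growth-driving partner of Max, was the one activator seen above the floor. Its single probe set, 1424942_a_at on 430A, had a signal of 42.5 in WT, 181.2 in LT and 132.9 in 17kT. It was thus under the floor in WT and above it in both transgenic livers, brighter than 33.3% of probe sets in WT, 65.7% in LT and 57.2% in 17kT. Against the floor, Myc was at least 2.0-fold higher in LT than in WT, a log2 ratio of 1.0 that lies on the edge of the rule. In 17kT it was at least 1.47-fold higher (0.56), not past the rule. Before flooring, the signal was 4.26-fold higher in LT and 3.13-fold higher in 17kT. The scatter of probe sets never above the floor also reaches this size, though Myc, above it in LT and 17kT, is not one of them. Under 6 scalings the floored log2 ratio ran from 0.90 to 1.09 in LT, past 2-fold in 4, and from 0.44 to 0.87 in 17kT, past 2-fold in 0. These 6, here and below, include the scaling used and the signals as deposited, which are nearly the same (1.0033 and 1.0032 for Myc in LT). Counts of scalings thus hold that setting 2 times. LT exceeded 17kT by a log2 ratio of 0.45, which is smaller than the SD of 0.47 given above.

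The genes with the Myc pattern were looked up by distance over the pair of log2 ratios to WT, among 5676 genes of 430A above the floor on all 3 arrays. The nearest were Lyar, which encodes a nucleolar protein of growing cells (1.0 in LT and 0.55 in 17kT), the cytoskeletal gene Epb41l2 (1.04 and 0.55) and Commd1, which acts in copper handling (1.02 and 0.59). Both Myc ratios used here are bounds, because WT was raised to the floor, and before flooring they were 2.09 and 1.64. The genes named are thus near a point that the floor helped to set. With 3 arrays this likeness is loose as well: 203 genes lay within a distance of 0.25.

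The other activators gave no direction. Mycn, known from embryonic and progenitor cells, had 3 probe sets, with signals from 7.0 to 40.4 in WT, 6.90 to 32.5 in LT and 16.1 to 25.6 in 17kT. Mycl, the third member of the activator family, also had 3, from 12.6 to 52.7 in WT, 4.10 to 36.5 in LT and 8.09 to 67.8 in 17kT. All of these were under the floor of 90.4, and the probe sets of Mycn did not share an order across the genotypes. Max, the shared partner of the other proteins of the network, had 1 probe set, 1423501_at, at 8.70 in WT, 17.1 in LT and 8.79 in 17kT. It was brighter than 12.1%, 20.0% and 11.1% of probe sets, so the level of Max was not measured by it.

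Mxd1, an antagonist known to be switched on as cells leave the cycle, was read by 3 probe sets that did not agree. On 430B, 1434830_at had a signal of 163.6 in WT, 444.0 in LT and 241.2 in 17kT, all above the floor and highest in LT. It was 2.71-fold higher in LT than in WT, a log2 ratio of 1.44, and 1.47-fold higher in 17kT (0.56). On the same arrays 1455104_at had 798.8 in WT, 228.8 in LT and 88.4 in 17kT, highest in WT and under the floor in 17kT. It was 3.49-fold lower in LT (-1.80) and at least 5.69-fold lower in 17kT (-2.51). The platform annotation gives both probe sets the same source accession. The third, 1422002_at on 430A, was under the floor throughout, at 18.5 in WT, 54.4 in LT and 14.6 in 17kT.

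Such a split needs a call in each direction, and in LT against WT 9.76% of all measured probe sets were called higher and 8.54% lower. The shares below are over all genes with several measured probe sets, called or not, so a low share does not make the split of Mxd1 exceptional. Of 1780 genes with more than 1 measured probe set on 430B, 26 (1.46%) had probe sets called in opposite directions in LT against WT, and Mxd1 was one of them. On 430A it was 4 of 2437. For 17kT against WT the 430B count was 18 of 1840, without Mxd1. The fall of 1455104_at was past 2-fold under all 6 scalings in both comparisons with WT, from -2.26 to -1.50 in LT and from -2.69 to -2.42 in 17kT. The rise of 1434830_at in LT was past it in 5 of 6, from 0.98 to 1.74, and its excess in LT over 17kT (0.88) was past it in 2 of 6, from 0.47 to 1.22. A direction for the Mxd1 gene as a whole is therefore not given.

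Mxd1 is abundant in neutrophils and other myeloid cells, and their markers were read beside it. Summed over 9 matched neutrophil markers, the signal was 15.2 times the floor in WT, 31.9 in LT and 24.3 in 17kT, with 2, 6 and 4 of the markers above the floor. Most of this sum was Lcn2, which hepatocytes are also known to make: it was at 749.0, 1858 and 1542, 2.48-fold higher in LT and 2.06-fold higher in 17kT than in WT. Without Lcn2, a split made after seeing the data, the other 8 markers summed to 6.94, 11.3 and 7.24 times the floor. S100a8 had 35.6 in WT, 229.0 in LT and 69.2 in 17kT, and S100a9 85.2, 171.2 and 71.5. Ngp, a neutrophil granule gene, was at 190.7, 184.0 and 132.2, and Csf3r and Camp were at the floor on every array. Summed over 10 Kupffer cell and macrophage markers, the signal was 155.9, 133.0 and 164.8 times the floor. The part of these cells in the Mxd1 values was not tested.

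Mxd3, the antagonist known for its expression in S phase of dividing cells, was read by 3 probe sets that lay mostly under the floor. 1422970_at had 10.9 in WT, 71.2 in LT and 97.9 in 17kT. 1438847_at had 44.3, 62.7 and 103.2. 1448878_at had 19.4, 43.9 and 79.8. Only 2 of these 9 values, both in 17kT, lay above the floor, and those under it have no order. Against it, Mxd3 was at least 1.08-fold (1422970_at) and at least 1.14-fold (1438847_at) higher in 17kT than in WT, neither past the rule. Before flooring the folds were 8.98, 2.33 and 4.11 for 17kT and 6.53, 1.42 and 2.26 for LT. All lay within the middle 95% of probe sets never above the floor, of which only 1448878_at is one. The 3 probe sets read the same RNA on the same arrays.

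Mxd4 had 4 probe sets, of which 2 rose above the floor. 1434378_a_at had 136.9 in WT, 68.7 in LT and 117.5 in 17kT, and 1434379_at 99.9, 69.7 and 95. Both were lowest in LT, where they fell under the floor. The log2 ratios for LT against WT were -0.60 and -0.14 as bounds, and for 17kT against WT -0.22 and -0.07. Neither probe set passed the rule, and both signs turned positive for 17kT when scaled to the hybridisation controls. The other 2 were under the floor, from 9.86 to 64.4.

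Mxi1, a close relative of the Mxd genes, had its brighter probe set above the floor in every genotype. That probe set, 1450376_at, had 256.7 in WT, 197.8 in LT and 286.6 in 17kT, and 1425732_a_at had 115.7, 83.8 and 94.5. The log2 ratios of 1450376_at were -0.38 for LT and 0.16 for 17kT, each within the spread between probe sets. Those of 1425732_a_at were -0.36 as a bound and -0.29. Both ratios of 1450376_at changed sign among the 6 scalings, from -0.63 to 0.10 and from -0.07 to 0.87. The genes nearest to it in pattern, of 5675 on 430A, were Scarb2, Shc1 and Csnk1g2, with 316 genes within a distance of 0.25.

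Mnt, the broadly expressed antagonist that opposes Myc in both resting and dividing cells, was higher in 17kT. 1418192_at had 86.7 in WT, 147.6 in LT and 188.2 in 17kT, so that both transgenic livers lay above the floor and WT just under it. It was at least 2.08-fold higher in 17kT than in WT, a log2 ratio of 1.06, and at least 1.63-fold higher in LT (0.71), the latter not past the rule. Under the 6 scalings the 17kT value ran from 0.89 to 1.38 and was past 2-fold in 3, among them the scaling used and the nearly equal signals as deposited. The second probe set, 1418193_at, was under the floor at 36.4, 32.3 and 32.9.

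In all, 8 member probe sets were measured in LT against WT, meaning that either array was above the floor. Of these, 2 were higher (Myc and Mxd1 1434830_at) and 1 was lower (Mxd1 1455104_at), against 9.76% higher and 8.54% lower among 25762 measured probe sets. In 17kT against WT, 1 of 10 was higher (Mnt 1418192_at) and 1 lower (Mxd1 1455104_at), against 9.03% and 7.47% of all. In LT against 17kT, 0 of 10 were higher and 0 lower, against 4% and 4.57% of all, and before flooring 4 of the 22 differed by 2-fold or more. With 8 to 10 measured probe sets, counts of 0 to 2 cannot be set apart from these background shares. The medians were -0.25, 0.14 and -0.09, against -0.02, 0.07 and -0.06 over all measured probe sets. The comparisons share arrays and are not independent of each other.

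**Figure D2:**
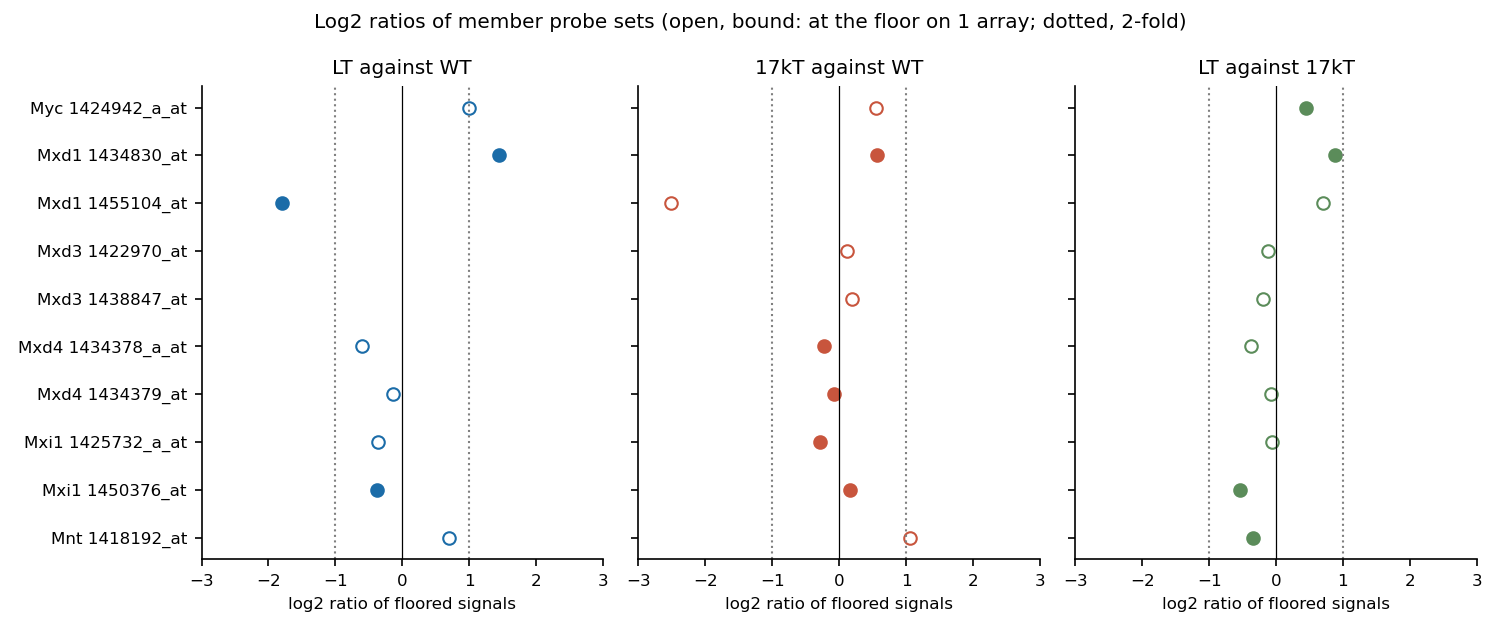
Log2 ratio of floored signals for the 10 member probe sets above the floor on at least 1 array, in LT against WT, 17kT against WT and LT against 17kT, 1 array per genotype. Filled points were above the floor on both arrays, open points are bounds, and dotted lines mark 2-fold. Mxd1 1434830_at at 1.44 and 1455104_at at -1.80 in LT lie on opposite sides, and no point in LT against 17kT reaches 2-fold.

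The E-box that the network binds, CACGTG, also occurs near the start sites of 3 of its own genes. RefSeq promoter windows (GRCm38.p6, 250 bases before to 50 after a start site) were found for 8 of the 9 genes, 10 windows in all, with none for Myc. CACGTG, which reads the same on both strands, lay in 3 of the 10 windows, those of Max, Mnt and Mxd4, against 7.15% of 32851 windows. Letters of E2F sites (TTTCCCGC, TTTGGCGC or TTCCCGCC on either strand, of which the first and the last can overlap) were found for Mycn and Mxd3, against 3.21% of all windows. The E-box sites are shown because this network binds those letters, and the Mxd3 site because E2F is the factor that the retinoblastoma family holds in check. That reason holds for Mycn too, whose E2F letters, at -183 and -168 from its start site, are not printed. Each site shown has 30 bases with the match in capitals, 5′ to 3′ on the strand of the gene, and a match is a description of letters only.
Max E-box (chr12:76962234-76962263, minus strand): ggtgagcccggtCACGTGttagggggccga
Mnt E-box (chr11:74830789-74830818, plus strand): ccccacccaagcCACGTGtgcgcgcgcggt
Mxd4 E-box (chr5:34187912-34187941, minus strand): gggctgggccacCACGTGctgttgctaagc
Mxd3 E2F letters (chr13:55329850-55329879, minus strand, match on the other strand): agttcagcctgGGCGGGAAgaggcgggctg

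The remaining members of the wider network pair with Mlx or stand beside Myc at the E-box. Mlxipl, which encodes the glucose-sensing factor ChREBP of hepatocytes, was at 3624 in WT, 1790 in LT and 1895 in 17kT. It was 2.02-fold lower in LT (-1.02) and 1.91-fold lower in 17kT (-0.94), past the rule under 4 and 2 of 6 scalings. Mga, a Max partner with a second DNA-binding domain, had 5 probe sets. Of these, 1434746_at on 430B was at 193.9, 411.4 and 282.9, and 2.12-fold higher in LT, past the rule under 5 of 6 scalings. The 430A probe set 1422646_at was at 77.4, 69.2 and 138.5 and thus gave no direction in LT, and the other 3 were under the floor. Mlx, the partner of Mlxipl, was at 244.2, 233.0 and 256.0 (1418437_a_at). Mlxip had 97.7, 113.6 and 161.8, a log2 ratio of 0.22 in LT and 0.73 in 17kT. The E-box factors Usf1 and Usf2 did not pass the rule in any probe set.

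The genes that ChREBP and its relative Mlxip are known to drive were mostly lower in both transgenic livers. In LT against WT, 14 of 20 measured genes were lower and 0 higher (median log2 ratio -1.45), against 9.01% lower and 11.1% higher and a median of 0.02 among 12775 genes. In 17kT, 17 of 21 were lower and 2 higher (-1.64), against 8.64% lower and 9.97% higher and a median of 0.07. Thrsp, a regulator of fat synthesis, fell from 8154 in WT to 133.6 in LT and 117.1 in 17kT. Rgn was 16.8-fold lower in LT and 12.1-fold lower in 17kT. For Scd1, the stearoyl-CoA desaturase gene, the folds were 7.44 and 8.48, and for Fasn, which encodes fatty acid synthase, 6.41 and 11.1. Txnip and Klf10 went the other way in 17kT, 5.47-fold and 3.12-fold higher. Against 17kT, LT had 1 of 21 genes higher, the glucose transporter gene Slc2a2 (3.30-fold), and 2 lower, Txnip (3.88-fold) and Klf10 (3.29-fold). Over all genes the shares were 4.47% higher and 4.23% lower. Many of the ChREBP targets answer to other lipid regulators too. Hepatocyte markers were lower beside them: their summed signal was 2628 times the floor in WT, 1774 in LT and 1484 in 17kT. Of the 11, 2 were lower in LT (Apoe, 3.15-fold, and Apob, 2.74-fold; median -0.54) and 3 in 17kT (Serpinc1, 2.38-fold, Ttr, 2.28-fold, and Apoa1, 2.10-fold; median -0.72). The part of hepatocyte RNA in the fall of the ChREBP targets was not tested.

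Genes that Myc is known to activate leaned upward in both transgenic livers. In LT, 26 of 68 measured genes were higher and 2 lower (median 0.60), and in 17kT 13 of 68 were higher and 3 lower (0.49). The shares among all genes were 11.1% higher and 9.01% lower in LT, and 9.97% and 8.64% in 17kT. Under the 6 scalings these medians ran from 0.34 to 1.07 and from 0.26 to 1.20. LT against 17kT had 3 of 67 higher and 0 lower (0.13, from -0.06 to 0.30), against 4.47% higher and 4.23% lower of 12541 genes. Among the largest increases were genes that also belong to DNA replication: Mcm5 at 246.4 in WT, 1799 in LT and 2323 in 17kT, Rrm1 at 150.8, 1087 and 1290, and Mcm4 at 205.0, 1202 and 1256. Xpo5, the exporter of microRNA precursors, was at least 5.96-fold higher in LT, more than Mcm4 (5.86-fold), and at least 3.91-fold higher in 17kT. Without 5 replication genes, 21 of 63 were higher in LT (median 0.55) and 8 of 63 in 17kT (0.31), a split chosen after seeing the data. All 5 had been called higher in both comparisons, so the fall in the counts was fixed by the choice. The 17kT count is then near the 9.97% of all genes, and the LT count is still above the 11.1%.

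Some textbook targets of Myc were looked at by name, a choice made after their values were seen, so they do not stand for the list. In the whole list 26 of 68 genes were higher and 2 lower in LT, and 13 and 3 in 17kT. Cdk4, also on it, was 3.37-fold higher in LT and 2.69-fold higher in 17kT. Odc1, the first enzyme of polyamine synthesis, was 2.01-fold higher in LT, past the rule under 3 of 6 scalings, and 1.16-fold in 17kT. The nucleolar genes Ncl and Npm1 were 1.94-fold and 1.42-fold higher in LT and 1.81-fold and 1.26-fold in 17kT, not past the rule. The pyrimidine synthesis gene Cad (1.20-fold and 1.15-fold) and the lactate dehydrogenase gene Ldha (1.22-fold and 1.43-fold) did not pass it either. Shmt2, the mitochondrial serine hydroxymethyltransferase, was 3.07-fold lower in LT and 2.22-fold lower in 17kT. Rcl1, a ribosomal RNA processing gene, was 2.78-fold lower in LT, and in 17kT Shmt1 was 2.36-fold and the transferrin receptor gene Tfrc 2.48-fold lower. Between the transgenic livers, Gadd45gip1 was at least 3.32-fold, Dkc1, a pseudouridine synthase gene, 2.15-fold and Tfrc 2.14-fold higher in LT.

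Genes that Myc is known to repress went both ways. In LT, 4 of 23 were higher and 1 lower (median 0.17), and in 17kT 4 of 22 were higher and 5 lower (-0.23). Among all genes 11.1% were higher and 9.01% lower in LT, and 9.97% and 8.64% in 17kT. Both medians changed sign among the 6 scalings, from -0.09 to 0.43 and from -0.42 to 0.27. Cdkn1a, the p21 gene that Myc represses through Miz1 and p53 activates, was at 214.6 in WT, 881.3 in LT and 2938 in 17kT. In LT, Atf3 (at least 2.60-fold), Klf6 (2.85-fold) and Ndrg1 (2.12-fold) were higher, and the matrix gene Sparc was 2.74-fold lower. In 17kT, Txnip (5.47-fold), the antiproliferative gene Btg2 (4.32-fold) and Cdkn1b, the p27 gene (at least 2.94-fold), were higher. The haptoglobin gene Hp (4.77-fold), the hepatocyte factor gene Cebpa (4.17-fold), Ndrg2 (3.11-fold) and Sparc (2.46-fold) were lower there. LT against 17kT had 5 of 22 higher and 3 lower (0.26, from -0.02 to 0.37), against 4.47% and 4.23% of all genes. Hp, Ndrg1, Fn1 and Cebpa were 2.95-fold, 2.84-fold, 2.51-fold and 2.27-fold higher in LT, and Btg2, Txnip and Cdkn1a 5.01-fold, 3.88-fold and 3.33-fold lower.

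Of 27 measured Myc cofactors and turnover genes, 6 were higher in LT and 8 in 17kT, with 0 lower in either (medians 0.39 and 0.61). Among all genes 11.1% were higher and 9.01% lower in LT, and 9.97% and 8.64% in 17kT. In LT against 17kT 0 of the 27 were higher and 2 lower, Zbtb17 and Bin1, against 4.47% and 4.23% of all genes. The LT median ran from -0.04 to 0.64 under the 6 scalings, and the 17kT median from 0.40 to 0.94. Aurka, a mitotic kinase that also shields Mycn protein, was 5.19-fold and 5.38-fold higher, the chromatin remodelling gene Ruvbl2 3.56-fold and 2.98-fold, Axin1 3.04-fold and 2.99-fold, and Sae1, of the SUMO pathway, 2.64-fold and 2.44-fold. Of 15 Mxd corepressor genes, 2 were higher in LT, Smc3 (2.78-fold) and the histone deacetylase gene Hdac2 (2.67-fold), and 2 in 17kT, Smc3 (2.19-fold) and Sin3a (2.03-fold). None was lower in either. Counts of 2 of 15 are near the share among all genes, but the medians, 0.75 and 0.70, lay above the 0.02 and 0.07 of all genes. They also lay above the 0.60 and 0.49 of the Myc-activated targets, so an upward lean was not particular to those targets. Sin3a, the scaffold that Mxd proteins recruit, was at 207.4 in WT, 365.1 in LT and 421.2 in 17kT, and its call in 17kT held under 3 of 6 scalings.

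**Figure D3:**
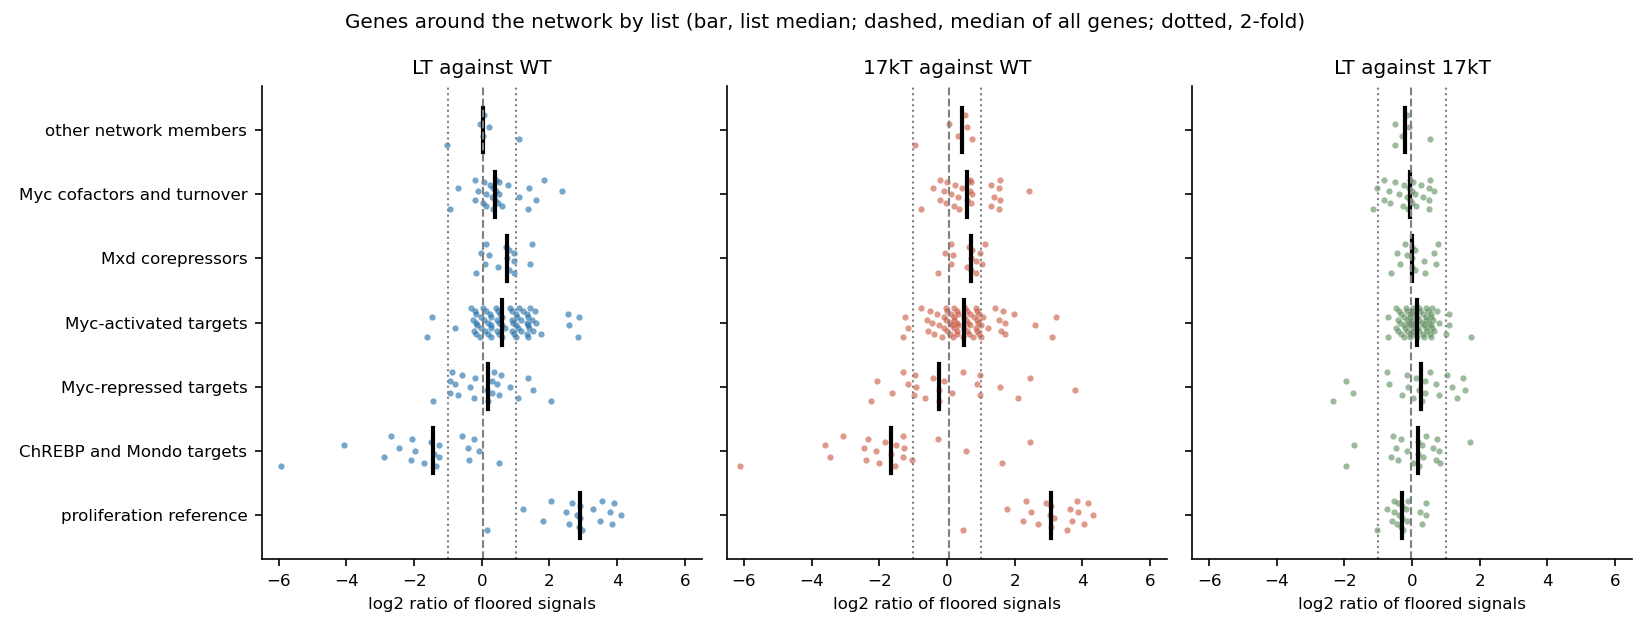
Log2 ratio of floored signals for the measured genes of each list around the network, 1 point per gene, in each of the 3 comparisons. Black bars are list medians, the dashed line is the median of all measured genes and dotted lines mark 2-fold. ChREBP and Mondo targets lie to the left in LT (-1.45) and 17kT (-1.64), and Myc-activated targets lean right (0.60 and 0.49), far less than the proliferation genes (2.90 and 3.09). Mxd corepressors lean right as well (0.75 and 0.70).

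Markers of other liver cells were read in the same way, since Myc, Mycl and Mxd genes are also expressed outside hepatocytes. Of 9 matched T and NK cell markers, 1 was above the floor in each genotype, with Cd3e, Cd3g and Cd3d under it. Of 9 dendritic cell markers, 4 or 5 were above it, and Flt3 and Xcr1 were under it throughout. Summed endothelial markers were 43.7, 30 and 38.6 times the floor in WT, LT and 17kT, stellate and matrix markers 73.7, 60.3 and 74.4, B and plasma cell markers 28.6, 17.6 and 19.7, and erythroid markers 37.2, 16.6 and 11.3. Bile duct and progenitor markers summed to 3.38, 14.0 and 3.48, with Krt19, Epcam and Sox9 under the floor throughout. Prom1 was at least 6.09-fold higher in LT than in WT, and for Cd24a this bound was 6.03-fold. Called lower were Ighm and Cd74 of the B cell list (2.52-fold and 2.3-fold in LT, 2.95-fold and 2.16-fold in 17kT), H2-Ab1 of the dendritic list (2.14-fold and 2.18-fold) and the erythroid heme synthesis gene Alas2 (14.0-fold and 12.4-fold). Of the endothelial list Cdh5 was lower in both (2.27-fold and 2.36-fold), Tek in LT (2.31-fold), and Lyve1 was higher in 17kT (2.01-fold). Of the stellate and matrix list Vim was higher (2.05-fold) and Lrat lower (2.18-fold) in LT, and Acta2 was lower in 17kT (2.14-fold). In 17kT the macrophage gene Timd4 was lower (2.15-fold) and Zbtb46 higher (2.13-fold). Between the transgenic livers, LT had more signal for Vim (2.18-fold), Prom1 (3.48-fold), Cd24a (at least 6.03-fold) and S100a8 (at least 2.53-fold), and less for Dcn (2.40-fold). The part of these cells in the network's values was not tested.

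The calls on the members depended on the floor and the scaling to different degrees. The Mxd1 probe set 1455104_at was called lower in both comparisons with WT under all 10 settings. Its neighbour 1434830_at was called higher in LT under 7 of 10. Myc in LT was called under 7 of the 9 settings that gave a value, and Mnt in 17kT under 5 of 9. The settings counted include the one used and the nearly equal signals as deposited.

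**Figure D4:**
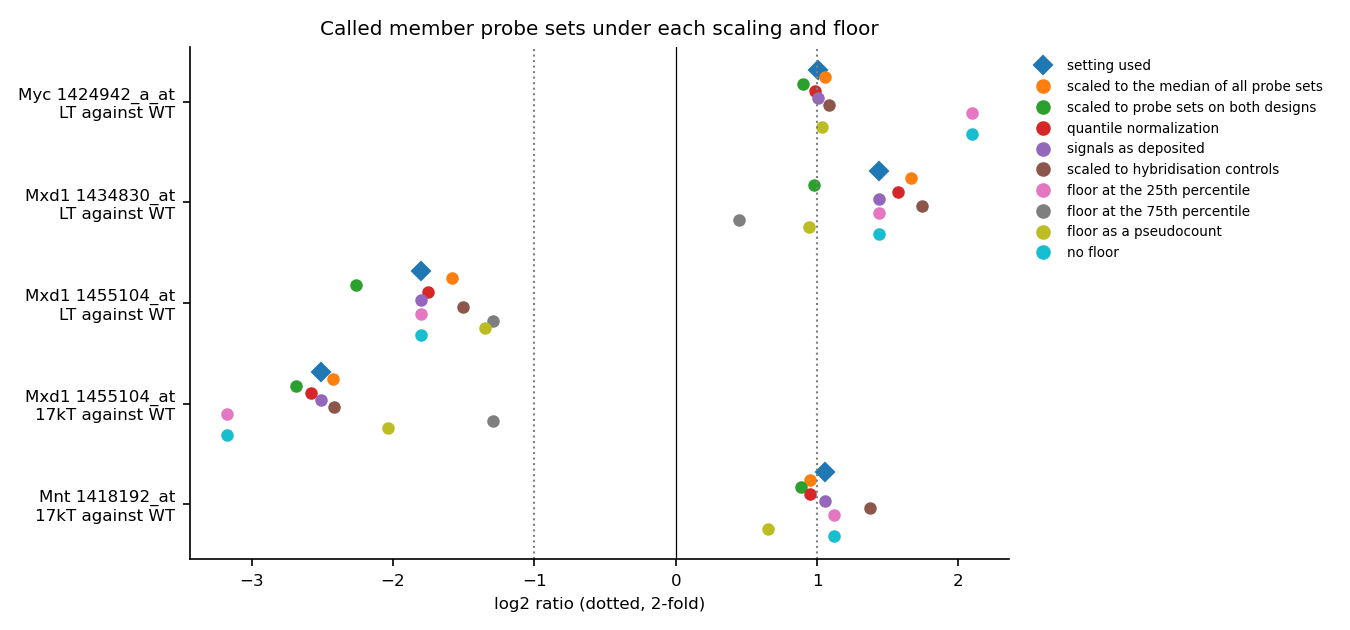
Log2 ratio of the 5 called member values under each scaling and floor. Diamonds are the setting used, circles the alternatives, and dotted lines mark 2-fold. Mxd1 1455104_at stays below -1 throughout, while Myc in LT sits near 1 under every scaling and at 2.09 with a lower floor or none.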

How the data were processed

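Liver RNA was read on 6 Affymetrix arrays, 1 per genotype and design (430A, 430B). Each probe set has 1 deposited intensity, linear, from MAS5 per the submitters' processing notes, which name no version. The 2% trimmed means of the deposited arrays lay from 250.03 to 250.12. Per the labels, RNA was extracted with RNA STAT-60. The deposited array settings files, read for the fluidics station, hold other values that are not expression.

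Signals were scaled within a design to a common 2% trimmed mean, raised to a floor at the median of all signals of that design (50th percentile: 90.4 on 430A, 140.5 on 430B) and converted to log2 (Python 3.11.15, pandas 2.3.3, numpy 2.4.6). Ratios were taken within a design only. A probe set at the floor on 1 array gives a bound ("at least"), on both no direction. The call rule was 2-fold, with no test. The code was tested on simulated arrays. Depth does not apply to arrays, whose number limits precision.

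Gene names came from the platform's annotation, updated by gene identifier through RefSeq (GRCm38.p6). On 430A 20380 probe sets had 1 symbol and 691 several, and on 430B 14661 and 245. Those with several or none were not used. All member probe sets are given, along with the up to 4 largest called genes each way of each list, all other network members, the 3 genes nearest in pattern to Myc and Mxi1, and checks of tissue and proliferation. Outside that rule, after their values were seen, Ncl, Npm1, Odc1, Cad, Cdk4, Ldha, S100a9 and Ngp were named, as were defining markers at the floor. In the lists each gene had its probe set brightest over the floor, and 282 of 307 entries matched. Members, lists and alternatives were chosen with earlier results of these data known. Alternatives were 5 other scalings, 2 other floors, a pseudocount, a 3-fold rule, other probe set choices and each design alone. Of the scalings, the signals as deposited were nearly equal to the one used. A setting with no floor, a shortened target list, neutrophil markers without Lcn2 and the scalings of Zbtb17, Bin1, Mlxipl, Mga, Odc1 and Sin3a were chosen after seeing the data.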

Additional observations from a re-analysis of the deposited data

How the results depend on the processing

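Scaling set the balance of all calls: in LT against WT 55.2% of called genes were higher, against 27.4% when scaled to probe sets on both designs and 81.2% to the hybridisation controls. The all-gene median went from 0.02 to -0.27 and 0.40. For 17kT against WT the controls moved it from 0.07 to 0.40, and the share higher from 53.6% to 79.7%. For LT against 17kT the share was 51.4%, from 22.2% to 73.2% over the scalings. The member counts moved as follows. Called higher in LT against WT, 2 probe sets, there were 0 when scaled to probe sets on both designs, with a floor at the 75th percentile or with the 3-fold rule, 1 with quantile normalization or the floor as a pseudocount, 4 with a floor at the 25th percentile and 5 with no floor. Called higher in 17kT against WT, 1 probe set, there were 0 with scaling to the median or to probe sets on both designs, with quantile normalization, a floor at the 75th percentile, a pseudocount or the 3-fold rule, 5 with a floor at the 25th percentile and 6 with no floor. Called higher in LT against 17kT, 0 probe sets, there was 1 when scaled to the median or to the hybridisation controls, 2 with a floor at the 25th percentile and 3 with no floor. Called lower, there were 2, 3 and 1 with no floor in place of 1, 1 and 0, and the count was otherwise the same under the alternatives run. The median of Myc-activated targets in 17kT against WT was 1.20 when scaled to the hybridisation controls. More calls with a lower floor follow from its construction, and the cause of the other moves was not tested. Among single member values and other list medians, 399 alternatives moved by less than the spread between probe sets and 39 by more, and none of the called ones changed sign. No paired analysis was possible because each genotype had 1 array per design. A value under the floor has no order, which limits Mycn, Mycl, Max and most of Mxd3.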

Other observations

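Among 27 measured cofactors and turnover genes of Myc, 2 were called between the transgenic livers, both near the rule. Over all genes 4.47% were higher and 4.23% lower in LT than in 17kT. Zbtb17, which encodes Miz1, the factor through which Myc represses Cdkn1a, had a signal of 97.8 in WT, 183.8 in LT and 407.0 in 17kT, and was 2.21-fold higher in 17kT than in LT. Bin1, which encodes a protein that binds Myc, had 135.9, 199.7 and 408.8, and was 2.05-fold higher in 17kT than in LT. Both were under the floor of 140.5 in WT and were read on the 430B design with 1 array per genotype. In 17kT against WT, Zbtb17 was at least 2.90-fold and Bin1 at least 2.91-fold higher, each past 2-fold under all 6 scalings. With the other floors included, these calls held under 8 and 7 of 9 settings. Under the 6 scalings the log2 ratio of LT to 17kT ran from -1.56 to -0.81 for Zbtb17 and from -1.45 to -0.69 for Bin1. Each was past 2-fold in 3, so that neither call between LT and 17kT holds under all of them.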
